A study of Danio rerio with 4 samples.

Results

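The genes described here are 10 zebrafish genes of the core DNA synthesis machinery: pola1, pola2, prim1, prim2, pole, pole2, pold1, pold2, pold3 and lig1. They encode the replicative DNA polymerases, the primase and the DNA ligase of the replication fork. They were taken by symbol from the authors' deposited table of a heart comparison, and all 10 were among its 14962 genes. The same 10 genes were found by Ensembl ID among the 31462 genes of the count libraries, which are described apart.

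Per the labels, adult zebrafish of the Ekkwill strain received daily injections over 3 days, either of alfacalcidol, a vitamin D analog that the liver converts to the active hormone, or of vehicle. RNA was sequenced from hearts collected 24 hours after the final injection. The labels give no dose, sex, exact age or transgene, and the groups share the strain, stage and tissue. Each group had 2 libraries, alfacalcidol replicates 1 and 2 and vehicle replicates 1 and 2. No label says whether a library is 1 heart or a pool. The p-values from the counts therefore set a group difference only against the spread between these libraries. The series title names growth and regeneration as the study's subject.

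Genome copying needs 3 replicative polymerases. Polymerase alpha with primase lays down a short RNA-DNA primer, polymerase epsilon extends the leading strand, polymerase delta extends the lagging strand, and DNA ligase 1 joins the lagging strand fragments. These genes are transcribed mainly in cells that enter S phase. Most cells of an adult heart are not cycling, although zebrafish cardiomyocytes can divide again after injury.

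The table and the count libraries differed in the heart muscle genes they held. By the authors' deposited table, 10 cardiomyocyte markers summed to 94104 CPM (read counts scaled to a common library total). They summed to 363.2 and 311.0 CPM in the libraries labelled alfacalcidol and to 312.2 and 349.0 CPM in those labelled vehicle. For 9 matched markers of skeletal muscle and cartilage the sums ran the other way. The authors' deposited table gave 2951 CPM for them, most of it from ckma and acta1b at 1492 and 1410 CPM. The other matched markers ranged there from 1.15 CPM for myhz2 to 19.5 CPM for ckmb. For the 9 markers the libraries labelled alfacalcidol had 43010 and 37380 CPM and those labelled vehicle 39918 and 42715 CPM. The libraries held 31427486 to 39572163 counts and go against their heart label by these markers. They are therefore called by their labels, and the table is given without them.

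All 10 replication enzyme genes rose by the authors' deposited table, between 2.01-fold for pold3 and 8.75-fold for pole. Every member passed an adjusted p of 0.05 (edgeR with Benjamini-Hochberg adjustment, by the authors) toward higher values, which 10.9% of all genes of that deposited table did. All 10 were also called at a minimum of 2-fold, and 8 of them reached 4-fold, sizes that 5.13% and 2.11% of all its genes reached. The median log2 fold change was 2.42 over the 10 genes, and over every gene of the authors' deposited table it was 0.0086. Which group is the numerator is not stated there. A positive value is read as higher with alfacalcidol because cyp24a1, the vitamin D degrading enzyme gene that the hormone induces, stands at 1.53 (log2; adjusted p 8.19e-05) by the authors' deposited table. In the count libraries cyp24a1 did not separate the labels: it had 6.80 and 3.07 CPM with the alfacalcidol label and 3.50 and 9.70 CPM with the vehicle label (log2 fold change -0.43, 95% interval -1.67 to 0.80). The table gives neither a standard error nor a value per library, so no member has an error or n from it, and differences between members could not be tested. In RNA from a whole tissue, more cells of a type and more RNA per cell cannot be told apart.

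**Figure D1:**
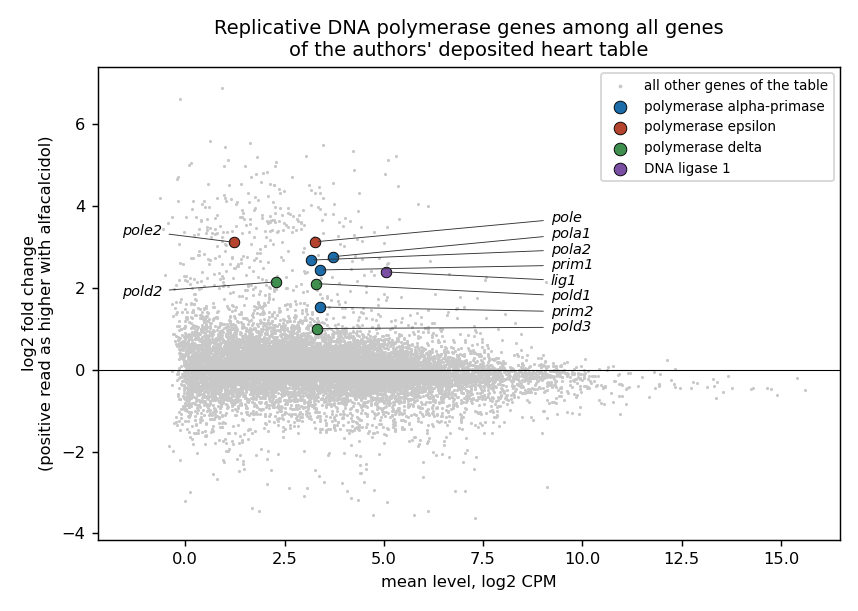
Each point is a gene of the authors' deposited table, with its mean level in log2 CPM on the horizontal axis and its log2 fold change on the vertical axis; coloured points are the 10 replication enzyme genes. All 10 lie above the median of all genes, 0.0086, between 1.01 for pold3 and 3.13 for pole.

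Polymerase alpha-primase starts every new DNA strand, and its 4 subunit genes were all higher. For pola1, the gene of its catalytic polymerase subunit (ENSDARG00000045308; GRCz10 chromosome 24, 23695675 to 23787351), the authors' deposited table lists a log2 fold change of 2.76 and a mean level of 13.1 CPM (adjusted p 2.22e-28). The regulatory subunit gene pola2 (ENSDARG00000015070; chromosome 8, 17139084 to 17148770) followed closely, and the authors' deposited table lists it at 2.68 (log2) and 8.91 CPM (adjusted p 1.32e-26). The gene prim1 (ENSDARG00000040163; chromosome 23, 17912844 to 17922564) encodes the catalytic primase subunit that makes the RNA part of the primer. Its log2 fold change was 2.44 and its level 10.5 CPM by the authors' deposited table (adjusted p 2.87e-25). The large primase subunit gene prim2 (ENSDARG00000052721; chromosome 13, 23357832 to 23481919) stood below these 3 genes, with a log2 fold change of 1.53 and a level of 10.6 CPM listed by the authors' deposited table (adjusted p 3.82e-10). Within the primase pair this is a 2.90-fold increase for prim2 and a 5.43-fold one for prim1.

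Polymerase epsilon, the leading strand enzyme, had the largest values of the 10. The authors' deposited table places its catalytic subunit gene pole (ENSDARG00000058533; chromosome 5, 12243423 to 12304689) at a log2 fold change of 3.13 and a mean of 9.63 CPM (adjusted p 1.46e-35). It places the second subunit gene pole2 (ENSDARG00000100028; chromosome 13, 116839 to 124711) at 3.12 and 2.35 CPM (adjusted p 9.22e-20, all from the authors' deposited table). Ordered by fold change among all 14962 genes, pole and pole2 ranked 179 and 181. The pole2 locus lies inside that of ppp1r21 (chromosome 13, 81454 to 127754). Reads on bases that exons of both genes share cannot be told apart without strand, a setting that the sources used here do not give. Whether their exons overlap was not examined. For ppp1r21 itself the authors' deposited table lists -0.27 (log2; adjusted p 0.348).

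Polymerase delta, the lagging strand enzyme, had 3 genes among the 10, each with a lower value than pole and pole2. The catalytic subunit gene pold1 (ENSDARG00000027689; chromosome 3, 16538030 to 16569444) had a log2 value of 2.11 by the authors' deposited table, with a level of 9.79 CPM (adjusted p 5.95e-19). For its second subunit gene pold2 (ENSDARG00000095046; chromosome 8, 36538074 to 36547093) the authors' deposited table lists 2.15 (log2) and 4.92 CPM (adjusted p 6.06e-16). These amount to 4.31-fold and 4.44-fold increases. The subunit gene pold3 (ENSDARG00000076169; chromosome 21, 21706963 to 21717994), whose human counterpart also serves the translesion polymerase zeta, was the lowest of the 10. The authors' deposited table gives pold3 a log2 fold change of 1.01 and a level of 10.1 CPM (adjusted p 2.80e-05). It ranked 760 by fold change among the 14962 genes, while pold2 and pold1 ranked 292 and 297.

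For the ligase gene lig1 (ENSDARG00000060041; chromosome 2, 44448278 to 44491323) the authors' deposited table lists a log2 fold change of 2.39, a 5.25-fold increase, and a level of 33.3 CPM (adjusted p 5.29e-32). Only pole had a smaller adjusted p among the 10.

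The 10 loci lie on 8 chromosomes. Taking the nearest gene on either side of each locus gave 20 flanking genes, of which 5 were called by the authors' deposited table, 3 higher and 2 lower, with a median log2 fold change of -0.044. In either direction 20.1% of all its genes were called, so the flanking genes do not stand out by number. The flanking gene with the largest value was cenph, a kinetochore gene that ends 1101 bases before the start of pola2. It stood at 4.28 (log2; adjusted p 2.40e-23) by the authors' deposited table, above the 2.68 of pola2. On the other side of pola2, 77 bases away, dimt1l stood at 0.88 (adjusted p 0.000979) by the authors' deposited table.

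The small accessory subunits of the same holoenzymes had lower values. The histone-fold subunit gene pole3 rose by 0.88 on the log2 scale, against 3.13 for pole, by the authors' deposited table (adjusted p 5.65e-05). Its partner pole4 was listed at 0.51 and the smallest delta subunit gene pold4 at -0.41, and neither was called (adjusted p 0.0685 and 0.143, authors' deposited table). The complete epsilon set therefore ran from 0.51 to 3.13 and the complete delta set from -0.41 to 2.15.

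Polymerases and ligases of repair, lesion bypass and mitochondria were compared as a list of 22 genes, which includes pole3, pole4 and pold4. The authors' deposited table holds 20 of them, of which 9 rose, 1 fell and 10 were not called, with a median of 0.53 (log2), beside 10.9% higher and 9.22% lower among all genes. The list counts the replicative subunit genes pole3, pole4 and pold4, each under 2-fold. It also holds poldip2 and poldip3, which do not encode a polymerase or ligase. With a 2-fold minimum, 3 of the 20 were called, beside 10 of the 10 members and 5.13% higher at that size among all genes. The largest was primpol, which encodes a primase-polymerase that restarts stalled forks by repriming. The authors' deposited table lists primpol at a log2 fold change of 4.99 and a level of 4.83 CPM (adjusted p 5.00e-50), above each of the 10 replicative genes. The microhomology end-joining polymerase gene polq followed with 2.30 (log2) and 1.92 CPM by the authors' deposited table (adjusted p 1.10e-11). Last of the 3 was polm, of non-homologous end joining, for which the authors' deposited table lists 1.23 (log2; adjusted p 0.00116) at a low mean of 1.51 CPM.

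Smaller increases were found for the lesion bypass genes polh, polk and rev3l, which the authors' deposited table lists at 0.80, 0.74 and 0.65 on the log2 scale (adjusted p 0.00169, 0.00906 and 0.00407). The lesion bypass genes rev1, mad2l2 and poli were not called. They were listed at 0.59, 0.44 and 0.06 (log2, adjusted p 0.0598, 0.245 and 0.896, authors' deposited table). The mitochondrial polymerase gene polg had 0.74 (adjusted p 0.00393) and the ligase gene lig3, of base excision and mitochondrial DNA repair, 0.53 (adjusted p 0.0348), both by the authors' deposited table. The gene polg2, of the same mitochondrial polymerase, had 0.10 and was not called (log2, adjusted p 0.831, authors' deposited table). The ligase gene lig4, of non-homologous end joining, had a log2 value of 0.54 by the authors' deposited table (adjusted p 0.0929) and was not called. Base excision repair's polb and the end-joining poll, also uncalled, were listed at -0.038 and 0.05 (adjusted p 0.945 and 0.921, authors' deposited table). The 1 gene that fell was poldip2, whose product was named for its binding to a delta subunit, at -0.55 (log2; adjusted p 0.0208) by the authors' deposited table.

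**Figure D2:**
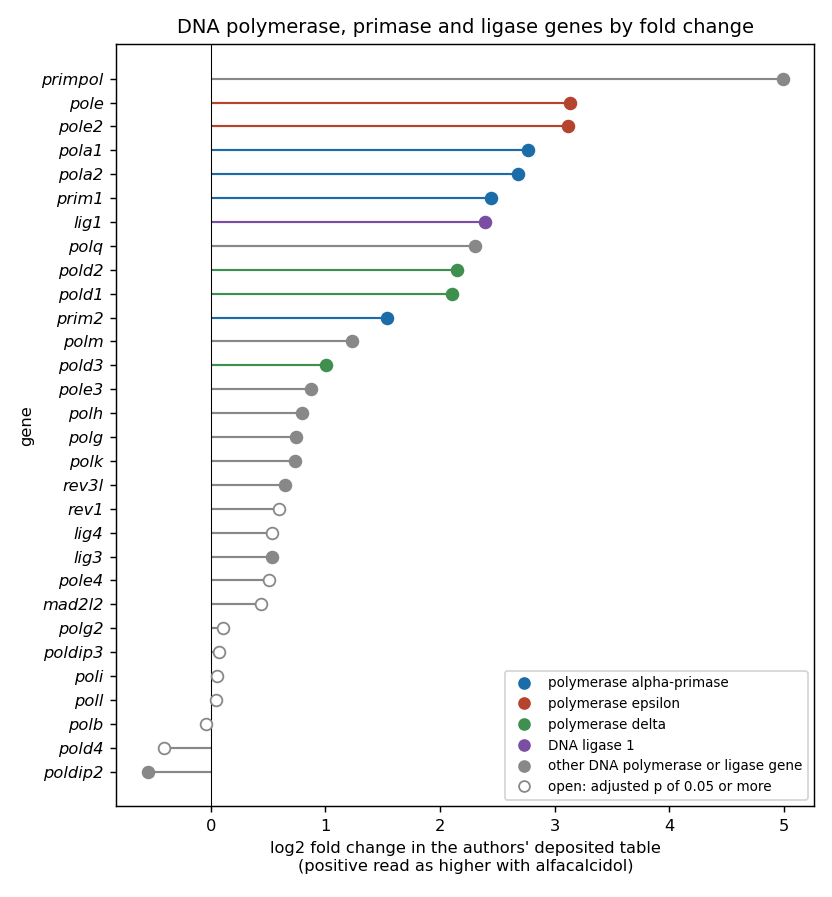
Log2 fold changes of the 10 replicative genes and 20 other DNA polymerase and ligase genes by the authors' deposited table, ordered from the largest at the top; colours mark the replicative complexes, grey the other genes, and open circles an adjusted p of 0.05 or more. The 10 replicative genes lie between 1.01 and 3.13, with primpol above them at 4.99 and poldip2 lowest at -0.55. The grey genes include the replicative subunit genes pole3, pole4 and pold4.

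Other fork proteins were taken as a list of 30 genes. They serve the clamp, clamp loader, helicase, single-strand binding, primer removal or fork protection, with mcm10 and wdhd1 also listed. Of the 30 genes, 28 were matched, and 27 rose and 0 fell by the authors' deposited table, beside 10.9% higher among all genes. Their median log2 fold change was 2.41, next to 2.42 for the 10 polymerase, primase and ligase genes. The 4 with the lowest p were the helicase subunit genes mcm2, mcm3, mcm4 and mcm6. The authors' deposited table lists them at 5.14, 5.36, 4.80 and 5.22 (log2; adjusted p 7.71e-105, 2.82e-93, 8.84e-85 and 1.26e-83), each above all of the 10. The 1 fork partner not called was timeless, of the fork protection complex, at 0.34 (log2; adjusted p 0.189) by the authors' deposited table. The CST complex, a partner of polymerase alpha-primase at chromosome ends, had 0 of 3 genes called. Its genes ctc1, stn1 and ten1 were listed at 0.27, 0.37 and 0.34 (log2; adjusted p 0.368, 0.286 and 0.324, authors' deposited table).

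Some genes listed as markers of cell types also changed in the same comparison. Of 9 matched blood cell markers, 5 fell and 0 rose by the authors' deposited table, beside 9.22% lower and 10.9% higher among all genes. The authors' deposited table lists lyz, mmp9 and mpx of neutrophils at -2.43, -2.19 and -1.31 (log2). It lists c1qc of macrophages at -0.73 and alas2 of red cells at -0.50. Other macrophage and red cell markers were not called. These were mpeg1.1, marco, hbaa1 and hbaa2 at -0.23, -0.50, -0.43 and -0.41 (log2, adjusted p 0.453, 0.0746, 0.0807 and 0.481, authors' deposited table). Of 9 skeletal muscle and cartilage markers 3 fell and 0 rose by the authors' deposited table, the muscle genes ckmb, ckma and acta1b at -1.27, -0.83 and -0.81 (log2; adjusted p 5.20e-10, 7.60e-05 and 0.000144). By the authors' deposited table ckma and acta1b had 1492 and 1410 CPM, beside 951 CPM for the cardiomyocyte marker vmhc. Their fall can therefore not be assigned to skeletal muscle. For ckmb, at 19.5 CPM, the cells behind its fall were not tested. The low-level muscle markers actc1b, mylpfa, tnnt3b and myhz2, at 8.75, 3.68, 2.50 and 1.15 CPM, were not called. Their log2 values were 0.06, 0.06, 0.23 and 0.16 (authors' deposited table). The cartilage markers col2a1a and acana, also uncalled, were listed at 0.56 and 0.49 (log2, adjusted p 0.211 and 0.0770, authors' deposited table). Of the 9 muscle and cartilage markers 6 had positive values, and the list median was 0.064. Of 10 cardiomyocyte markers 1 was called lower, nppa at -1.09, and 0 higher by the authors' deposited table, with a list median of -0.34. All 10 had negative values there. The marker myl7, at -0.45 (log2, adjusted p 0.0501, authors' deposited table), narrowly missed the call. For germ cells 7 of 8 listed markers were not matched. The matched gene was ccnb3, a cyclin gene, at 2.60 (log2, adjusted p 1.05e-10) by the authors' deposited table. Other cyclin genes, ccnb1 and ccna2, rose there as well, at 4.32 and 4.02 (log2). Whether germ cells had a part in the rise of ccnb3 was not tested. A level per group is not listed by the authors' deposited table, and the part of these cell types in the increases was not tested.

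In the count libraries, none of the 10 genes was called between the labels. The edgeR quasi-likelihood test (Benjamini-Hochberg adjusted) called 0 of the 10 members and 0.00% of the 22428 genes tested. At an unadjusted p under 0.05 it had 128 genes, 0 of them members, and DESeq2 called 0 genes with 19 under 0.05. Both counts lie far below a 0.05 share of the genes tested, the share that evenly spread p-values give. The tests were thus conservative on these libraries. The members' log2 fold changes ran from -0.039 for lig1 to 0.16 for pole2, with 5 positive and 5 negative. Their median was -7.67e-05, against -0.0017 over all genes tested.

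The alpha-primase genes did not separate the labels. The gene pola1 had 40.9 and 40.6 CPM in the libraries labelled alfacalcidol, against 43.0 and 38.8 CPM in those labelled vehicle. For pola2 the values were 14.7 and 15.8 CPM with the alfacalcidol label, against 14.9 and 15.5 CPM with the vehicle label. In both genes the groups overlapped, and the spread within the vehicle label exceeded the difference between the means. The primase gene prim1 had 19.6 and 20.3 CPM in the libraries labelled alfacalcidol and 19.2 and 20.5 CPM in those labelled vehicle. Its partner prim2 had 20.4 and 19.1 CPM under the alfacalcidol label and 19.95 and 18.2 CPM under the vehicle label. These groups overlapped as well.

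Among the epsilon genes, pole had 26.8 and 30.3 CPM in the libraries labelled alfacalcidol, against 29.9 and 26.6 CPM in those labelled vehicle. Alfacalcidol replicate 2 and vehicle replicate 1 were the higher libraries. For pole2 the values were 6.71 and 6.70 CPM with the alfacalcidol label and 5.79 and 6.22 CPM with the vehicle label. It was the 1 gene of the 10 whose groups did not overlap, where 21.0% of all genes tested did not, so this count is not a result about these genes. Its log2 fold change was 0.16 ± 0.14 (SE, n = 2 and 2 libraries; edgeR unadjusted p 0.292, adjusted p 1.0), and its 182 to 266 counts per library were the fewest of the 10.

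Among the delta genes, pold1 had 35.0 and 39.4 CPM in the libraries labelled alfacalcidol and 40.2 and 35.3 CPM in those labelled vehicle. For pold2 these were 12.1 and 13.2 CPM under the alfacalcidol label and 14.4 and 11.5 CPM under the vehicle label. In both, as for pole, alfacalcidol replicate 2 and vehicle replicate 1 were the higher library of their label. The subunit gene pold3 had 25.8 and 24.1 CPM in the libraries labelled alfacalcidol and 26.1 and 24.6 CPM in those labelled vehicle. The ligase gene lig1 had 44.2 and 43.0 CPM with the alfacalcidol label and 47.2 and 42.5 CPM with the vehicle label. The groups overlapped for pold1, pold2, pold3 and lig1. Which replicate was the higher one differed among the members. Replicate 1 was higher under both labels for pola1, prim2, pold3 and lig1, and replicate 2 for pola2 and prim1. For pole2 the higher libraries were alfacalcidol replicate 1, by little, and vehicle replicate 2.

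**Figure D3:**
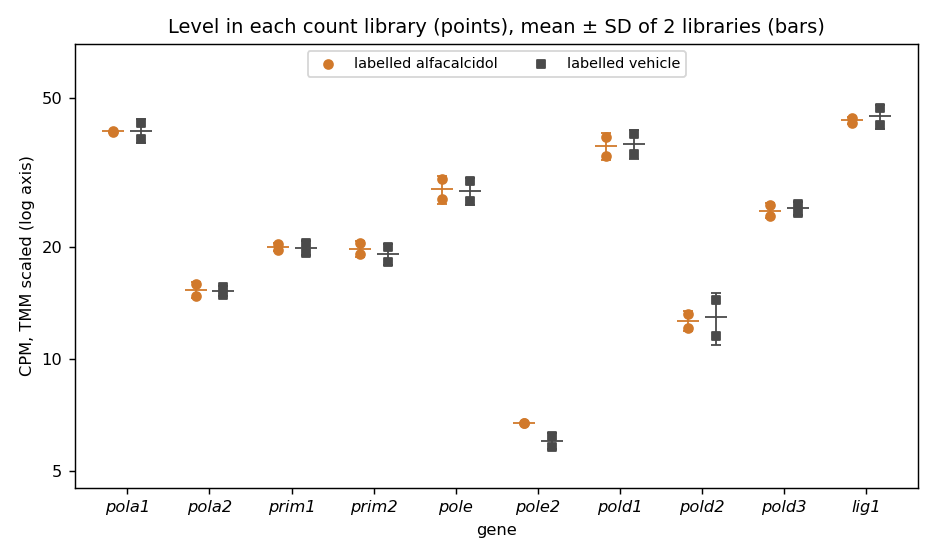
Level of each of the 10 genes in the count libraries, in TMM-scaled CPM on a log axis; circles are libraries labelled alfacalcidol, squares those labelled vehicle, and bars the mean ± SD of 2 libraries. The labels overlap for 9 genes, and for pole2 the alfacalcidol libraries, at 6.71 and 6.70 CPM, lie above the vehicle libraries at 5.79 and 6.22 CPM.

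The members had 182 to 1706 counts per library, a counting error of 7.41% down to 2.42%. The highest upper 95% bound on a member's log2 fold change was 0.49, for pole2, and the lowest lower bound was -0.35, for pold2. For pole the interval ran from -0.23 to 0.27, and the 3.13 listed for it by the authors' deposited table lies outside. The interval of pold3, from -0.23 to 0.19, likewise leaves out the 1.01 of the authors' deposited table. The libraries go against their heart label by the markers above, so these intervals do not test the values of the authors' deposited table. All 10 genes were detected in both sources: their mean level in the libraries was between 1.33 times, for lig1, and 3.83 times, for pold1, that of the authors' deposited table.

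**Figure D4:**
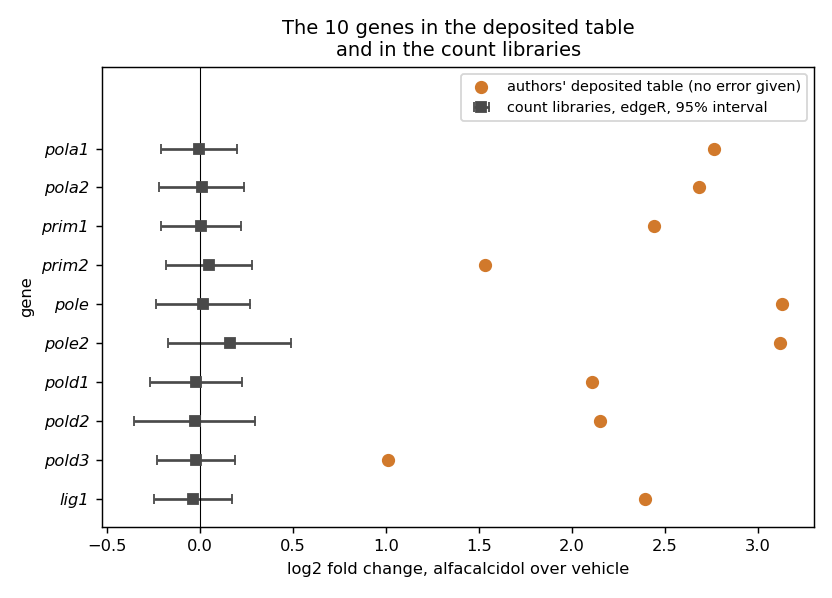
Log2 fold changes of the 10 genes, with circles for the authors' deposited table, which gives no error, and squares with 95% intervals for the edgeR fit of the count libraries. The intervals of the libraries lie between -0.35 and 0.49 and all hold 0, while the table's values lie between 1.01 and 3.13. The sources differ in heart muscle markers, so the intervals do not test the table's values.

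The other polymerase genes with large values were also without a call between the labels. The gene primpol had 6.83 and 8.01 CPM in the libraries labelled alfacalcidol, against 7.61 and 7.14 CPM in those labelled vehicle (log2 fold change 0.01, 95% interval -0.33 to 0.36). For polq these were 6.03 and 6.23 CPM under the alfacalcidol label and 6.08 and 5.73 CPM under the vehicle label. The groups overlapped in both genes. Of 20 other polymerase and ligase genes and 28 fork partners tested in the libraries, edgeR called 0 and 0, with list medians of 0.02 and -0.0018 on the log2 scale.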

How the data were processed

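RNA of 4 libraries labelled as heart was sequenced, 2 labelled alfacalcidol and 2 labelled vehicle. Raw read counts per Ensembl gene were deposited by the authors; the submitters' processing notes name CASAVA, TopHat2, featureCounts, edgeR and GRCz10, and the sources used here give no version, strand setting or rule for shared reads. For 1 comparison the authors deposited log2 fold changes, mean levels in log2 CPM and p-values, without values per library. The deposited adjusted p-values equal a Benjamini-Hochberg adjustment of the unadjusted ones. The lowest level there is -0.63 (log2 CPM).

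The count fit used edgeR 4.0.16 (R 4.3.3, quasi-likelihood test, TMM, filterByExpr, group only, two-sided, all 22428 genes, threshold 0.05). It was also run on simulated data with 1 dispersion for all genes. Those data lacked the deviations shared between the real libraries, so that run cannot vouch for the fit on them. DESeq2 1.42.0 was an alternative. The common dispersion was 0.012. Counting errors cover counting only. Genes were matched by symbol, ignoring case, and 109 symbols with more than 1 ID were left out of lists. By rule the text names the 10 members, called or holoenzyme-subunit polymerases, and CST genes. It also names the 4 fork partners with the lowest p and those not called. Flanking genes, polb, poll, lig4, rev1, mad2l2, poli, polg2, markers, ccnb1 and ccna2 were named after their values were seen. Members and lists were chosen with earlier results of these data known. No sequence was used here, so a promoter motif count was not run.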

Additional observations from a re-analysis of the deposited data

How the results depend on the processing

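All 10 genes kept their call at an adjusted p of 0.01 and with a 2-fold minimum by the authors' deposited table, where pold3 has 2.01-fold; a library could not be left out of that table. With the 2-fold minimum the other polymerase and ligase genes called numbered 3 in place of 10, blood cell markers 3 in place of 5, skeletal muscle and cartilage markers 1 in place of 3, and all genes 1262 in place of 3006. In the count libraries edgeR called 0 genes with RLE scaling, with no low-count filter, with the replicate number as a block (39 genes at an unadjusted p under 0.05) and with each library left out (0 to 0), and DESeq2 called 0. Same-numbered libraries deviated from their group means in opposite directions (correlation -0.71 over 14622 genes with a mean of 200 counts or more), so the numbers do not pair them. A crossed block, which pairs alfacalcidol 2 to vehicle 1 and alfacalcidol 1 to vehicle 2, was chosen after seeing the data and gave 7 calls, with 788 genes at an unadjusted p under 0.05. Whether a member was among these 7 calls was not examined. The 40 values of members under RLE, no filter, DESeq2 and the replicate block kept their sign and stayed uncalled. The members' median was -0.00072 under RLE and 0.0010 with the replicate block, and with a library left out it ran from -0.062 to 0.070. With a library left out, the uncalled log2 fold changes ran from -0.076 to 0.068 for pola1, -0.045 to 0.058 for pola2, -0.040 to 0.056 for prim1, -0.014 to 0.12 for prim2 and -0.076 to 0.10 for pole. They ran from 0.11 to 0.21 for pole2, -0.11 to 0.072 for pold1, -0.18 to 0.14 for pold2, -0.070 to 0.025 for pold3 and -0.11 to 0.038 for lig1. The cause of the changes of sign was not tested. The promoter motif count was not run.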

Other observations

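RNA polymerase subunit genes, looked at after the values of the DNA polymerase genes were seen, give a measure of another polymerase family in the same comparison. Of 28 genes whose symbol begins with polr1, polr2 or polr3, 4 rose and 0 fell by the authors' deposited table, a share of 14.3% beside 10.9% higher among all genes. Their median log2 fold change was 0.31, and 25 of 28 were positive, by the authors' deposited table. Over all its genes 7631 of 14962 were positive, with a median of 0.0086. The authors' deposited table lists the called genes polr2h and polr3d at 1.58 and 1.09, polr1e at 0.63 and polr3a at 0.56 (log2; adjusted p 3.51e-06, 2.91e-05, 0.0237 and 0.0204). The product of polr2h is a subunit of all 3 nuclear RNA polymerases. Of the catalytic subunit genes polr1a, polr2a and polr3a, only polr3a was called. The authors' deposited table lists polr1a and polr2a at -0.29 and -0.14 (log2, adjusted p 0.305 and 0.663). In the count libraries edgeR called 0 of the 28, with a median log2 fold change of 0.0065.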
